A study of Mus musculus with 8 samples.

Results

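Cytochrome P450 genes were examined in the skin of near naked hairless mouse pups and of wild type pups. The genes were taken by name: a probe belonged to the set when its RefSeq accession, without version, led to a mouse symbol of the form Cyp, number, letter, number, and Cyp3a41a, which carries a further letter for a gene copy, was kept. The array held 41 such genes, each with a single probe, out of 6585 named genes, and 35 had values on at least 3 of the 8 arrays. Cyp51, a sterol enzyme outside this form of name, was left out.

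The study set skin RNA of mutant pups aged 7 days against that of wild type pups of the same age on 2-colour arrays, to find genes that differ between them. Near naked is a mutation of the hairless gene that leaves the coat sparse. The design text gives 5 biological replicates from 1 litter. The labels do not give strain, sex or zygosity, and they do not tie arrays to animals, so that some of the 8 arrays may share animals in a way not known here, and p-values over arrays measure the spread between arrays and may be too small for animals. On arrays 2, 4, 6 and 7 Cy5 marked the mutant RNA, and on arrays 1, 3, 5 and 8 Cy3 did. A value is the log ratio of the channels of an array, taken as base 2 and read as mutant over wild type. That direction is likely, from the order of channels and of the design text. With the opposite sign each "lower" below would read "higher".

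Cytochrome P450 enzymes are haem proteins that use oxygen and electrons from NADPH to insert an oxygen atom into lipids, steroids, vitamins and foreign chemicals. The families with low numbers handle mostly foreign chemicals and fatty acids, and those with high numbers handle mostly cholesterol, steroid hormones, retinoic acid and vitamin D. In skin they are known for clearing compounds that enter from outside, for making signalling lipids from arachidonic acid, and for the balance of retinoic acid and vitamin D, which keratinocytes and hair follicles respond to. Many members of the family are best known from liver, adrenal gland or gonad. The arrays gave ratios without spot intensities, so the level of a gene in skin, or its signal over background, was not measured here, and the tissue could not be checked by levels of marker genes.

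Values were unevenly spread over the arrays. Arrays 3 and 2 had values for 13 and 15 of the 35 genes, arrays 8 and 1 for 24 and 28, and arrays 4 to 7 for 33 or 34. Over all rows an array had values for between 41.3% and 88.3%. The median of the 35 genes lay between -0.13 and 0.09 on arrays 1 to 7 and at -0.60 on array 8. On array 8, 17 of 24 genes were below 0, while the median of all named genes was -0.04. On array 1, 20 of 28 genes were below 0, while the median of all named genes was 0.04. The SD of a gene between arrays had a median of 0.69 over the 35 genes and of 0.70 over all 6306 named genes with values on at least 3 arrays.

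**Figure D1:**
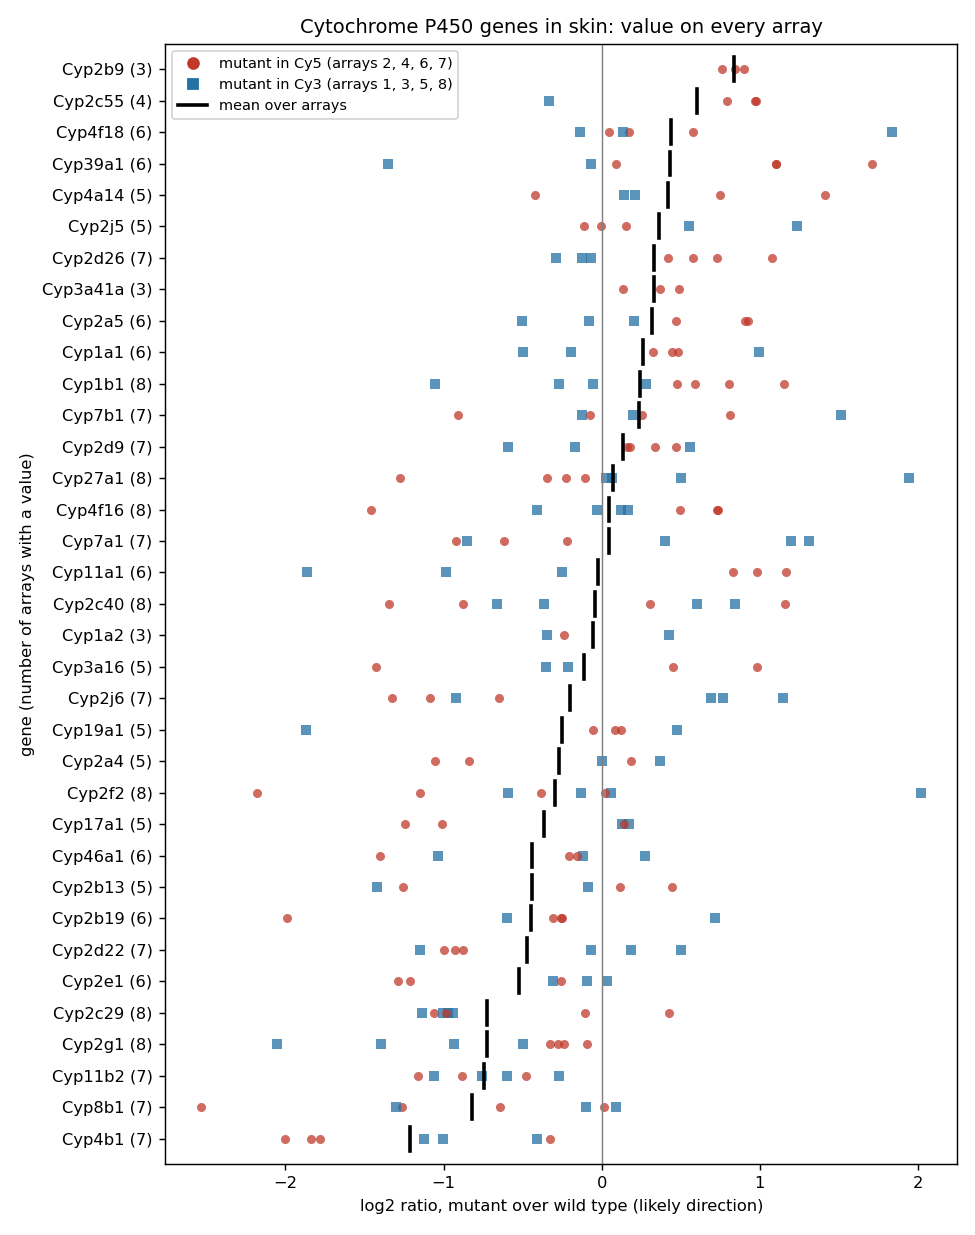
Each row is a cytochrome P450 gene with its number of measured arrays, and each point is its log2 ratio of mutant over wild type on an array; circles are arrays with the mutant in Cy5, squares arrays with the mutant in Cy3, and bars the mean. Cyp4b1 is at the bottom with a mean of -1.21 and all 7 values below 0, and most other genes have values on both sides of 0.

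Of the 35 genes, 22 were measured on 3 or 4 arrays in each dye orientation and were tested in the fit over all 3779 named genes that met this limit. Cyp4b1, a hydroxylase of fatty acids, fell in the mutant, and no P450 gene rose (limma, adjusted p below 0.05). The share of 1 in 22 (4.55%) stood beside 3.47% of all tested genes called in either direction and 2.8% called lower, so that the family as a whole was called about as often as other genes. Fitted ratios were below 0 for 13 genes and above 0 for 9, with a median of -0.04, against a median of 0.05 over all tested genes, of which 44.7% were below 0. At an unadjusted p below 0.05, 7 of the 22 (31.8%) were lower and 0 higher, beside 9.31% of all tested genes lower and 10.2% higher. These 7 were Cyp4b1, Cyp8b1, Cyp11b2, Cyp2g1, Cyp2c29, Cyp2d22 and Cyp2e1. The standard error of a fitted ratio ran from 0.18 to 0.31, and the 95% interval reached 0.53 to either side at the median. The threshold after adjustment was stricter than this interval. A true difference of that size could thus pass unseen in most members, and larger ones could too. Fitted ratios of -0.77 for Cyp8b1, -0.76 for Cyp11b2 and -0.73 for Cyp2g1 did not pass.

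**Figure D2:**
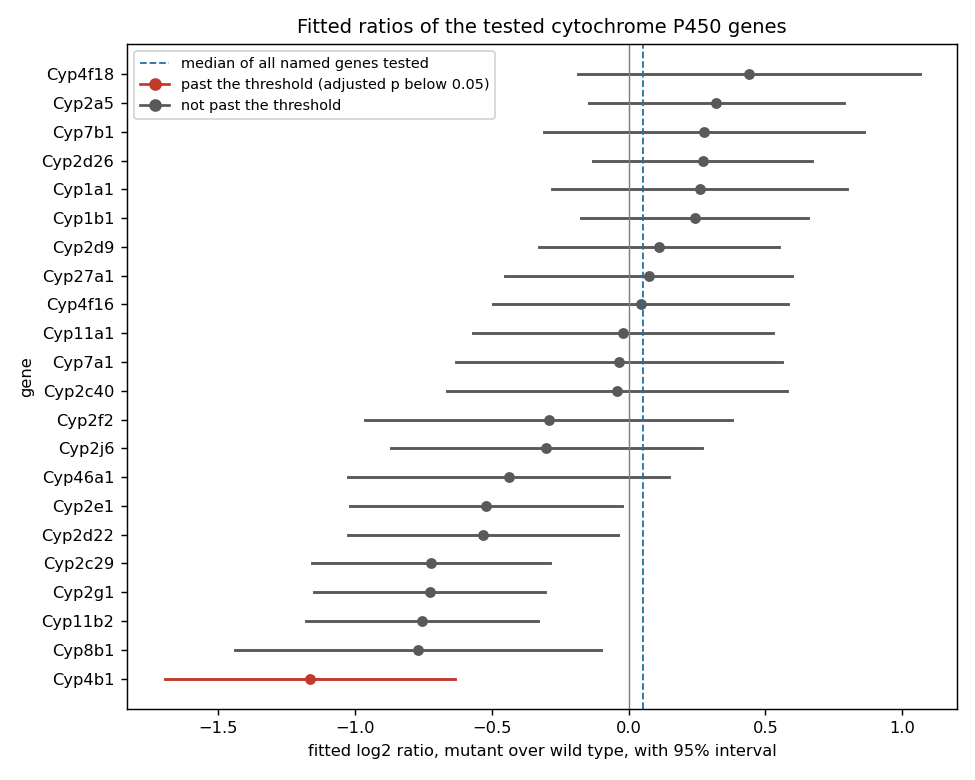
Fitted log2 ratio of mutant over wild type (points) with 95% intervals (lines) for the 22 tested genes, in order. Cyp4b1 at -1.17 is the single gene past the threshold; the intervals of 6 further genes lie wholly below 0 without passing after adjustment over all genes, and the dashed line marks the median of all tested genes, 0.05.

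Cyp4b1 encodes the P450 of the CYP4 family that hydroxylates medium-chain fatty acids and is best known for activating plant and fungal toxins in lung. Its log2 ratio was -2.002, -1.84, -1.78 and -0.33 on arrays 2, 4, 6 and 7, with the mutant in Cy5. With the mutant in Cy3 it was -1.12, -1.003 and -0.41 on arrays 1, 5 and 8, and array 3 had no value. All 7 measured arrays were below 0, the orientations overlapped, and arrays 7 and 8 had the values nearest to 0. The mean was -1.21 ± 0.69 (SD, n = 7). The fitted ratio, which weights the orientations equally, was -1.17 ± 0.24 (SE), with a 95% interval from -1.70 to -0.64 and an adjusted p of 0.0247 in limma. On base 2 this is a level 2.24-fold lower in the mutant, with an interval from 1.55-fold to 3.24-fold. It was the lowest ratio of the 22 and the 76th lowest of 3779. In whole skin, fewer cells that express the gene and less RNA per cell cannot be told apart.

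The fall of Cyp4b1 held its direction in every one of 17 other fits and stayed past the threshold in 10 of them. The ratio stayed at -1.17 with the looser limit on missing values, with probes in place of genes and without array 3. These fits used the same values of Cyp4b1, which had none on array 3, and could not challenge its ratio. Of the arrays that measured Cyp4b1, leaving out 1, 2, 4, 5 or 6 lost the call, with adjusted p up to 0.106 in limma. Leaving out array 7 or 8 kept it. Without arrays 1, 2 and 3 together the ratio was -1.01 (adjusted p = 0.168). With columns read as Cy5 over Cy3, the ratio was -0.32 (adjusted p = 0.372), so the call rests on the table being turned to a single direction already. Over those 17 fits the adjusted p ran from 0.00049 to 0.372.

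**Figure D3:**
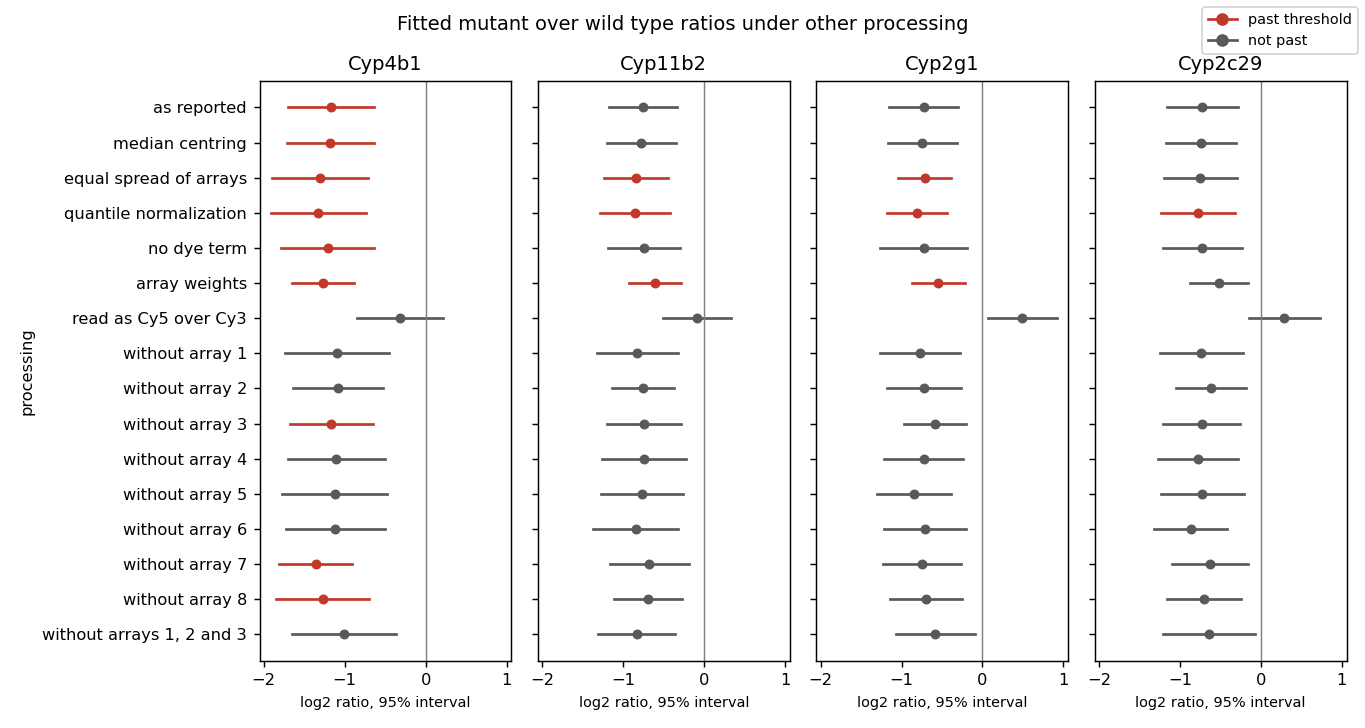
Fitted log2 ratio of mutant over wild type with 95% interval for Cyp4b1, Cyp11b2, Cyp2g1 and Cyp2c29 (panels) under each processing (rows); red marks an adjusted p below 0.05. Cyp4b1 lies between -1.36 and -1.01 in all rows but that read as Cy5 over Cy3, where it is -0.32, and there Cyp2g1 and Cyp2c29 lie above 0, at 0.49 and 0.29.

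The sequence before the start of Cyp4b1 is shown with those of the other lowest tested genes for which RefSeq promoter entries were found, Cyp8b1 and Cyp2c29, so that the stretch in front of genes with low ratios can be compared. Each is the 250 bases before the start, 5′ to 3′ in the direction of the gene, from RefSeq on GRCm38.p6. Capitals mark exact matches, on either strand, to the letters of any of 3 motifs. The first is the core promoter element TATAAA. The next is AGGTCA, the unit that nuclear receptors bind. The last is GCGTG, the core of the site bound by the dioxin receptor.
Cyp4b1 (chr4:115647722-115647971, - strand): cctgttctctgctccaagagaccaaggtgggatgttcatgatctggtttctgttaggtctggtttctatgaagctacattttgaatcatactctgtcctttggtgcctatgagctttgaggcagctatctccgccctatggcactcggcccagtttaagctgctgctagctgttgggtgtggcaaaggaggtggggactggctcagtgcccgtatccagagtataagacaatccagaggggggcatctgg
Cyp8b1 (chr9:121916306-121916555, - strand): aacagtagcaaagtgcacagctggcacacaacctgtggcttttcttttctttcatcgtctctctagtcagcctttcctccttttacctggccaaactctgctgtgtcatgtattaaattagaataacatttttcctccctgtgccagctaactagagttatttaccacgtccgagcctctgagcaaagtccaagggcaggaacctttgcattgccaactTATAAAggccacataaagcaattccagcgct
Cyp2c29 (chr19:39286835-39287084, + strand): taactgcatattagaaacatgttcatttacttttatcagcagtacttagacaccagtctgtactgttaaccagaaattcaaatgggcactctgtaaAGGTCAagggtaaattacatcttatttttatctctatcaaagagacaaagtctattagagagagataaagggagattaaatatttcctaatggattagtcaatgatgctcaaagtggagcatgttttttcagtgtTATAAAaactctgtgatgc
The window of Cyp4b1 held none of these letters. That of Cyp8b1 held TATAAA starting 31 bases before the start, and that of Cyp2c29 held TATAAA at 19 bases and AGGTCA at 154 bases before it. Promoter entries were found for 27 of the 35 genes, 30 windows in all. TATAAA was in 15 of these 30, against 12.4% of all 32851 windows of this length, and AGGTCA was in 8, against 14.0%. GCGTG was in 4, those of Cyp1a1, Cyp1b1, Cyp46a1 and Cyp4f16, against 28.2% of all windows. A match is a description of letters and not of a bound site.

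The other genes of the CYP4 family, which hydroxylate the far end of fatty acids, did not pass. Cyp4a14, the neighbour of Cyp4b1 in the genome with no gene outside the P450 family between them and a target of the fatty acid receptor PPAR alpha in liver, had values on 5 arrays and was not tested. Its values were 1.42, -0.42 and 0.75 on arrays 2, 4 and 6 and 0.21 and 0.14 on arrays 1 and 5, with a mean of 0.42 ± 0.69 (SD, n = 5). Cyp4b1 was below its neighbour on each of those 5 arrays. Since Cyp4b1 had the lowest ratio of the tested genes and Cyp4a14 was picked after its values were seen, this comparison is no test. Cyp4f18, which breaks down leukotriene B4 in neutrophils, had the highest fitted ratio of the tested genes. Its values were 0.17, 0.04 and 0.58 on arrays 4, 6 and 7 and -0.13, 0.14 and 1.84 on arrays 1, 5 and 8. Array 8 stood apart, and without it the ratio of 0.44 ± 0.28 (SE, adjusted p = 0.417) was 0.13. Cyp4f16 had a ratio of 0.04 ± 0.25, with 5 arrays above 0 and 3 below, the lowest being -1.46 on array 7.

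The CYP2 family, which acts on foreign chemicals and on arachidonic acid, was the most numerous, with 18 genes on the array, 16 with values on at least 3 arrays and 10 tested. None passed the test in limma. At an unadjusted p below 0.05, 4 were lower and 0 higher, beside 9.31% of all tested genes lower and 10.2% higher. Fitted ratios were below 0 for 7 and above 0 for 3, with a median of -0.30.

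Cyp2g1, a P450 known from the olfactory mucosa, was below 0 on 8 of 8 arrays. It was at -0.27, -0.24, -0.33 and -0.09 on arrays 2, 4, 6 and 7, and at -0.94, -2.06, -0.50 and -1.39 on arrays 1, 3, 5 and 8. All values with the mutant in Cy3 were lower than all with the mutant in Cy5. The fitted ratio was -0.73 ± 0.19 (SE, adjusted p = 0.0648 in limma). The adjusted p was 0.0118 with quantile normalization, 0.0213 with an equal spread of arrays, 0.0320 with array weights and 0.0467 among genes with values on all arrays, and over all 18 other fits it ran from 0.0118 to 0.256. Read as Cy5 over Cy3, the ratio turned to 0.49.

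Cyp2c29, a liver P450 that makes epoxides of arachidonic acid, was at -1.06, -0.11, 0.42 and -0.98 on arrays 2, 4, 6 and 7. With the mutant in Cy3 it was at -0.94, -0.97, -1.005 and -1.14 on arrays 1, 3, 5 and 8, a narrow range. The fitted ratio was -0.72 ± 0.20 (adjusted p = 0.0721), and 7 of 8 arrays were below 0. It passed with quantile normalization alone (0.0345), and over 18 other fits its adjusted p ran from 0.0345 to 0.325. Of its relatives in the same gene cluster 1 was tested. Cyp2c40, an intestinal P450 of arachidonic acid, had 4 arrays above 0 and 4 below and a ratio of -0.04 ± 0.28. Cyp2c55 had 0.97, 0.98 and 0.80 on arrays 4, 6 and 7 and -0.33 on array 5, and was not tested.

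Cyp2b19, Cyp2g1, Cyp2a5 and Cyp2f2 stand in a run of the genome, with no coding gene outside the P450 family between them. Other P450 genes that may lie between them were not counted. Cyp2g1 was below 0 on all 8 arrays, and the other genes of this run had values on both sides of 0. Cyp2a5, which oxidises coumarin and nicotine, was at 0.92, 0.47 and 0.90 on arrays 4, 6 and 7 and at 0.21, -0.08 and -0.50 on arrays 1, 3 and 5. Its orientations did not overlap, and its ratio was 0.32 ± 0.21 (adjusted p = 0.427). Cyp2f2, which activates naphthalene in the airway, spread most among them, with -2.18 as its lowest value (array 2), 2.02 as its highest (array 3) and a ratio of -0.29 ± 0.31. Cyp2b19, known as the P450 of differentiating keratinocytes that makes epoxides of arachidonic acid, was below 0 on 5 of 6 arrays. Its values were -0.25, -1.99, -0.31 and -0.26 on arrays 2, 4, 6 and 7 and 0.72 and -0.60 on arrays 5 and 8, with a mean of -0.45 ± 0.88 (SD, n = 6). It had too few arrays with the mutant in Cy3 for the test, and the looser limit of 3 arrays in all gave -0.32 ± 0.32 (SE, adjusted p = 0.693).

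Cyp2b13, Cyp2b9 and Cyp2a4 stand in a run of their own, with 4 genes outside the family between it and Cyp2b19, and were not tested. Cyp2a4, a liver hydroxylase of testosterone, had a mean of -0.27 ± 0.64 (SD, n = 5). Cyp2b13 had -0.44 ± 0.85 (SD, n = 5), with values from -1.42 to 0.45. Cyp2b9 was measured on arrays 4, 6 and 7 alone, all with the mutant in Cy5, at 0.90, 0.76 and 0.84. These probes may share signal between near-identical members of a subfamily, since probe sequences were not used here.

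The Cyp2d genes, which oxidise many drugs and stand in 1 cluster, also went both ways. Cyp2d26 was at 0.73, 1.08, 0.58 and 0.42 on arrays 2, 4, 6 and 7 and at -0.29, -0.07 and -0.12 on arrays 1, 5 and 8. The sign followed the dye on every array, and the ratio was 0.27 ± 0.18 (adjusted p = 0.435). Cyp2d9 had a ratio of 0.11 ± 0.20, with 5 of 7 arrays above 0. Cyp2d22 had a ratio of -0.53 ± 0.22 (adjusted p = 0.224), with 5 of 7 arrays below 0. Cyp2e1, which oxidises ethanol and small solvents, had a ratio of -0.52 ± 0.22 (adjusted p = 0.232), with values of -1.21 and -1.29 on arrays 4 and 6 and between -0.31 and 0.03 elsewhere. Of the Cyp2j genes, which make epoxides of arachidonic acid, Cyp2j6 was at -0.30 ± 0.26 (-0.076 without array 8) and Cyp2j5, measured on 5 arrays, had a mean of 0.37 ± 0.55 (SD).

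The CYP1 family, whose genes are switched on by the dioxin receptor and which activates polycyclic hydrocarbons in skin, had ratios above 0 for both tested genes, neither past the test. Cyp1a1 was at 0.33, 0.45 and 0.49 on arrays 4, 6 and 7 and at -0.20, -0.50 and 1.00 on arrays 1, 5 and 8, with a ratio of 0.26 ± 0.24 (adjusted p = 0.585) that was 0.036 without array 8. Its highest and lowest values both came from arrays with the mutant in Cy3. Cyp1b1, which is also made outside the liver and acts on oestrogens and retinol, was at 1.15, 0.59, 0.48 and 0.80 on arrays 2, 4, 6 and 7. It was at -0.06, -1.05, -0.27 and 0.28 on arrays 1, 3, 5 and 8, below all the values of the other orientation. The ratio was 0.24 ± 0.19 (adjusted p = 0.515), with an interval from -0.17 to 0.66. Cyp1a2 had values on 3 arrays, -0.35, 0.43 and -0.24 on arrays 1, 5 and 7.

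Of the CYP3 family, the main drug oxidisers of liver and gut, none met the limit for the test. Cyp3a16 had a mean of -0.11 ± 0.91 (SD, n = 5), from -1.43 to 0.98. Cyp3a41a was at 0.13, 0.37 and 0.49 on arrays 4, 6 and 7, all with the mutant in Cy5.

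Among 6 genes of cholesterol and bile acid turnover, 5 were tested and none passed in limma. At an unadjusted p below 0.05, 1 was lower, beside 9.31% of all tested genes lower. That gene was Cyp8b1, which sets the share of cholic acid in bile. It was at -2.53, -1.26, -0.64 and 0.02 on arrays 2, 4, 6 and 7 and at -0.10, 0.09 and -1.30 on arrays 1, 5 and 8. The values covered a wide range, with 5 of 7 below 0 and a fitted ratio of -0.77 ± 0.30 (adjusted p = 0.197). Cyp7a1, the rate-limiting enzyme of bile acid synthesis, had a ratio of -0.04 ± 0.27, with -0.22, -0.62 and -0.92 on arrays 4, 6 and 7 against 0.40, 1.31, 1.20 and -0.85 on arrays 1, 3, 5 and 8.

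Cyp7b1, which hydroxylates oxysterols, was at -0.07, 0.81, 0.26 and -0.91 on arrays 2, 4, 6 and 7 and at -0.13, 0.20 and 1.51 on arrays 1, 5 and 8, with a ratio of 0.27 ± 0.27 (adjusted p = 0.599) that was 0.029 without array 8. Cyp27a1, a mitochondrial enzyme that hydroxylates cholesterol and vitamin D, was at -0.10, -0.22, -0.35 and -1.27 on arrays 2, 4, 6 and 7. It was at 0.03, 1.94, 0.50 and 0.07 on arrays 1, 3, 5 and 8, so that its sign followed the dye on all 8 arrays. Its ratio of 0.07 ± 0.24 (adjusted p = 0.893) turned to -0.15 without array 3. Cyp46a1, the cholesterol hydroxylase of brain, had -0.44 ± 0.26 (SE), with 5 of 6 arrays below 0. Cyp39a1, an oxysterol hydroxylase, was not tested and had a mean of 0.43 ± 1.10 (SD, n = 6), from -1.35 to 1.71.

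The genes of steroid hormone synthesis, best known from adrenal gland and gonad, had values on at least 3 arrays in 4 cases. The mean over arrays was below 0 for all 4. The median over arrays was above 0 for Cyp11a1, Cyp17a1 and Cyp19a1 and below 0 for Cyp11b2. Of the 2 tested, none passed in limma and 1 was lower at an unadjusted p below 0.05, beside 9.31% of all tested genes. Cyp11b2, the aldosterone synthase, was below 0 on 7 of 7 arrays, at -0.89, -0.48 and -1.16 on arrays 4, 6 and 7 and at -0.27, -0.76, -0.60 and -1.06 on arrays 1, 3, 5 and 8. The orientations overlapped closely, with means of -0.84 and -0.67. The SD between arrays was 0.32, less than that of 0.69 for Cyp4b1. The ratio was -0.76 ± 0.19 (SE) and missed the threshold (adjusted p = 0.0606). It passed with quantile normalization (0.0186), with array weights (0.0187) and with an equal spread of arrays (0.0248). Over all 17 other fits its adjusted p ran from 0.0186 to 0.784, the last with columns read as Cy5 over Cy3, where the ratio was -0.09.

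Cyp11a1, which makes the first step from cholesterol to steroid hormones, was the gene with the widest gap between dye orientations. It was at 1.16, 0.83 and 0.98 on arrays 4, 6 and 7 and at -1.86, -0.99 and -0.25 on arrays 1, 3 and 5. The ratio was -0.02 ± 0.25 (adjusted p = 0.971) and the dye part, the mean with the mutant in Cy5 minus that with it in Cy3, was 2.03 ± 0.49 (adjusted p = 0.0579). Cyp17a1, a hydroxylase and lyase on the way to sex steroids, had a mean of -0.36 ± 0.70 (SD, n = 5), with 3 of 5 arrays above 0 and -1.25 and -1.01 on arrays 4 and 6. Cyp19a1, the aromatase that makes oestrogens, had -0.25 ± 0.93 (SD, n = 5), with -1.87 on array 8 and values from -0.05 to 0.48 on the others.

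The 6 genes with values on fewer than 3 arrays were outside the set by the rule. Of these, 4 had 2 values: Cyp26a1, which breaks down retinoic acid, at -0.73 and 0.21, Cyp21a1 at 0.36 and -0.48, Cyp2c39 at -0.70 and -0.40, and Cyp3a13 at 0.06 and 1.02. Cyp24a1, which breaks down vitamin D, was at 2.10 on array 1 and Cyp2c37 at 0.92 on array 1. Cyp1a2, Cyp2b9 and Cyp3a41a, with 3 values each, stood just inside the limit. For retinoic acid and vitamin D breakdown these arrays therefore gave 3 values in all, on 2 genes.

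Genes with 1 sign on every array were compared with the table as a whole. Of 24 P450 genes with values on at least 6 arrays, 3 had a single sign throughout, namely Cyp4b1, Cyp11b2 and Cyp2g1, all below 0. Over all 4409 named genes with as many values the share was 7.6%.

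Several genes of the family followed the dye orientation. In 6 of the 22 tested genes the values of the orientations did not overlap: Cyp11a1, Cyp1b1, Cyp2a5, Cyp2d26 and Cyp2g1 were higher with the mutant in Cy5, and Cyp27a1 was lower. This was 26.4% over all tested genes, so the P450 genes followed the orientation about as often as others. No dye part passed in limma (6 at an unadjusted p below 0.05, beside 30.9% of all genes, and 1.75% of all genes past the adjusted threshold). Array 8 bore on this count, since without it 5 dye parts passed: those of Cyp11a1, Cyp1b1, Cyp2d22, Cyp2j6 and Cyp7a1. In that fit 20.1% of all tested genes passed, about the same share. Values of Cyp2j6 on arrays 1, 3 and 5 were 0.69, 1.15 and 0.77, against -0.92 on array 8 and -0.65, -1.32 and -1.09 on arrays 4, 6 and 7.

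**Figure D4:**
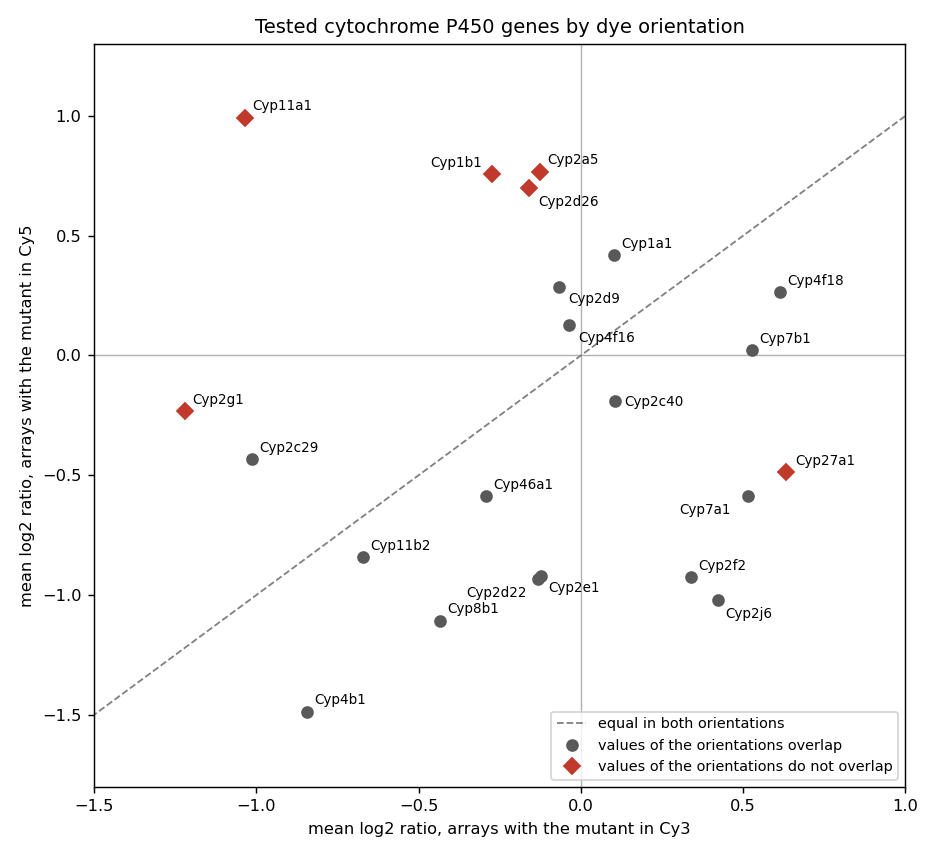
Mean log2 ratio of each tested gene over arrays with the mutant in Cy3 (horizontal) and in Cy5 (vertical); the dashed line marks equal means and diamonds mark the 6 genes whose orientations do not overlap. Cyp4b1 and Cyp11b2 lie below 0 on both axes, at -0.84 and -1.49 and at -0.67 and -0.84, while Cyp11a1 lies at -1.03 and 0.99.

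The partners of the P450 enzymes were read from 9 lists of genes, of which 79 members outside the family were tested. None passed in limma. Of the 79, 12 were higher and 5 lower at an unadjusted p below 0.05, beside 10.2% higher and 9.31% lower of all tested genes. Their median ratio was 0.16, beside 0.05 for all tested genes. Of the 8 tested genes of electron supply and of haem making or breakdown, 7 were above 0, beside 2088 of 3779 genes in all. Their median was 0.41, and 4 were higher at an unadjusted p below 0.05, beside 10.2% of all tested genes. Hmox1 at 0.22 and Hmox2 at 0.40, the latter among the 4, break haem down, so the list is not of supply alone. Highest was Cpox, an enzyme of haem synthesis, at 0.92 ± 0.23 (adjusted p = 0.0579), above 0 on 7 of 7 arrays, and lowest Cyb5b, a mitochondrial cytochrome b5, at -0.34.

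Receptors that control P450 genes had 14 tested members with a median of -0.06, from Vdr, the vitamin D receptor, at -0.97 (adjusted p = 0.256) to Rxrb at 0.37. Vdr was below 0 on 7 of 7 arrays, with -4.80 on array 2. The 7 genes of retinoid metabolism and binding had a median of -0.06, from Adh7 at -0.77 to Rarg at 0.50.

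Enzymes that act after the P450 step did not pass either. The 10 glutathione transferases had a median of -0.11, from Gsto1 at -0.76 to Mgst3 at 0.42. The 4 glucuronosyl and sulphotransferases had a median of 0.47, from Ugt8a at -0.13 to Ugt2a3 at 0.78 (adjusted p = 0.115). The 13 other enzymes of foreign chemicals had a median of 0.23, from Aldh2 at -0.51 to Aldh3a2 at 0.76.

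Of the lipid lists, 6 genes of eicosanoid synthesis had a median of 0.18, from Ptgs1 at -0.31 to Alox15 at 0.68. The 8 genes of sterols and steroids outside the family had a median of 0.34, from Hsd11b2, which inactivates glucocorticoids, at -0.71 (adjusted p = 0.104) to Cyp51 at 0.74. Hsd11b2 passed without array 8 (-0.87, adjusted p = 0.0390), with quantile normalization and with array weights. The 9 genes of acylceramide and barrier lipids had a median of -0.09, from Scd3 at -0.78 to Scd2 at 0.93 ± 0.68 (SE). The value of Scd2 rests on array 8, at 5.98, with the other 5 arrays between -1.96 and 0.60.

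Markers of cell types that whole skin could hold were read beside the fall of Cyp4b1. The hair shaft list had 5 of 8 genes lower and 0 higher in limma, beside 2.8% of all tested genes lower and 0.662% higher. It also held Krt27 and Krt71 of the inner root sheath, and Krt71 at -0.79 was among the 5. The list had a median of -1.03, and a median below 0 on 8 of 8 arrays, from -1.38 to -0.53. Its part in the ratio of Cyp4b1 was not tested. The sebaceous list had 0 of 5 past the threshold, with array medians from -0.77 to 1.18. At an unadjusted p below 0.05 it had 1 higher and 1 lower, beside 10.2% and 9.31% of all tested genes. In the adipocyte list Cfd (1.96) alone of 5 rose and none fell, while Car3 was at -0.86 and below 0 on 7 of 7 arrays (adjusted p = 0.0667), with array medians from -1.56 to 1.46. Of 4 fibroblast genes Vim (1.17) rose, of 5 macrophage genes C1qb (-1.37) fell, and of 3 genes of interfollicular epidermis Krt1 (1.305) rose, with no other call in these lists. Other members lay on the opposite side of 0 without passing. Among them were Krt35 of the hair shaft at 0.63 (adjusted p = 0.434), with 4 arrays above 0 and 4 below, and Lum of fibroblasts at -0.21. Ivl of the epidermis was at -1.06 (adjusted p = 0.0733), and Tyrobp and C1qa of macrophages were at 0.71 and 0.39.

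For the P450 genes known from other organs, the lists of liver and of steroid glands were read in the same way. Of 3 liver genes tested 1 fell past the threshold, beside 2.8% of all tested genes lower in limma. It was Afp, the fetal albumin-like protein of plasma, at -1.33 ± 0.26 (adjusted p = 0.0158), with 7 of 8 arrays below 0. Apoa1 was at 0.03. The liver list had array medians from -1.38 to 0.20, below 0 on the 4 arrays with the mutant in Cy5 and above 0 on the other 4. Of the steroid gland list a single gene was tested, Hsd3b1, at 0.38 (adjusted p = 0.300), where Cyp11b2 was at -0.76. The part of these in the ratios of Cyp8b1, Cyp2c29 and Cyp11b2 was not tested.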

How the data were processed

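Skin RNA of mutant and wild type pups was compared on 8 arrays with swapped dyes. The authors deposited a table of log ratios, taken here as log2 values. The sources used here do not give their base, direction, normalization or the rule that left values missing. Per the labels, dyes and hybridization followed TIGR's protocols. The number of arrays limits the precision. Of 23232 rows, 1235 control spots were left out. Names came from RefSeq (GRCm38.p6): 6747 rows matched by accession, including 232 Gapdh spots averaged into 1 probe, 77 by synonym and 15173 not. Probes of a gene were averaged.

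Genes with values on at least 3 of 4 arrays of each orientation were fitted in limma 3.58.1 (R 4.3.3) with an intercept for the ratio and a term for dye orientation, empirical Bayes moderation and Benjamini-Hochberg adjustment over 3779 genes at 0.05. The fit was tested on simulated data. Members and lists were chosen with earlier results of these data known. All members are named. Values on each array are given for genes past the threshold, the 4 highest and lowest ratios, genes of 1 sign on at least 6 arrays, and a preset group of skin P450 genes; Cyp2c29, Cyp2j6, Cyp2b19, Cyp4a14, Cyp7a1 and others were added after their values were seen. Of each list, genes past the threshold and the extremes are named; C1qa and single-array values of Vdr and Scd2 were also added after their values were seen. Alternatives covered missing values, centring, spread, quantile normalization, the dye term, array weights, the direction, probes and each array left out.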

Additional observations from a re-analysis of the deposited data

Results flagged for a closer look

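Of 32 genes with values on 4 to 8 arrays, 3 had 1 value past the critical gap of Dixon's test. About 1 gene in 20 would pass by chance, here 1.6. Cyp4f18 was at 1.84 on array 8, with the next value at 0.58. Cyp19a1 was at -1.87 on array 8, with the next at -0.05. Cyp2c55 was at -0.33 on array 5, its single array with the mutant in Cy3, with the next at 0.80. Array 8 was the array apart for 2 of these 3 genes, in opposite directions.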

How the results depend on the processing

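The number of P450 genes past the threshold was 1 in the fit reported and with median centring, without a dye term, with probes in place of genes, with the looser limit on missing values and, for another gene (Cyp2g1), among genes with values on all arrays. It was 3 with an equal spread of arrays, 4 with quantile normalization, 4 with array weights, 0 read as Cy5 over Cy3 and 0 without arrays 1, 2 and 3 (chosen after seeing the data), and 0 to 1 without an array. Every call was lower in the mutant. Over all named genes the count of 131 (25 higher, 106 lower) became 81 on all 8 arrays, 206 with an equal spread, 350 with quantile normalization (128 and 222), 64 without a dye term, 428 with array weights (143 and 285), 66 read as Cy5 over Cy3 (62 and 4), 12 without arrays 1, 2 and 3, and 53 to 130 without an array. P450 dye parts past the threshold, 0 in the fit reported, were 2 with an equal spread, 2 with quantile normalization, 7 with array weights, 1 read as Cy5 over Cy3, 1 with probes, and 0 to 5 without an array. Partner genes, 0 in the fit reported, were 1 with the looser limit (Gsta4), 4 with quantile normalization, 4 with array weights, 1 read as Cy5 over Cy3, 1 with probes (Cpox), and 0 to 1 without an array. Of the 225 values of 13 genes under alternatives, 14 changed sign, none of them past the threshold. Read as Cy5 over Cy3, ratios turned to 0.49 for Cyp2g1, 0.29 for Cyp2c29, -0.17 for Cyp4f18, -0.25 for Cyp7b1, -0.56 for Cyp27a1 and 1.01 for Cyp11a1. Cyp27a1 turned to -0.046 with an equal spread, -0.050 with array weights and -0.17 without arrays 1, 2 and 3, and ran from -0.15 to 0.20 without an array. Cyp11a1 turned to 0.095 with quantile normalization and 0.37 without arrays 1, 2 and 3, and ran from -0.22 to 0.19 without an array. The cause of these changes was not tested. No paired analysis was possible because all arrays form 1 group of ratios. Spot intensities were not analysed here, so signal over background sets no limit that could be stated.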
